A study of Mus musculus with 6 samples.

Results

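Cadherins and protocadherins are adhesion proteins of the cell surface. They were taken from the gene counts by symbol: every row named Cdh and a number except Cdh5, every row named Pcdh and a number, and every row named Pcdhb and a number. This gave 55 genes of 32531 gene symbols. There were 22 numbered cadherins, 12 non-clustered protocadherins and 21 protocadherins of the beta cluster. Enough reads for a test were found for 49 of them, namely 18 numbered cadherins, 11 non-clustered and 20 beta-cluster protocadherins.

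The samples were cerebral cortex of adult Htr4-EGFP/Rpl10a mice, line ES1299, which were untreated. In this line the ribosomal protein Rpl10a carries a green fluorescent tag, and per the labels the construct is named for Htr4, a serotonin receptor gene, so the tagged cells are those in which that construct is active in this 1 line. The IP group (n = 3) is RNA bound to tagged ribosomes, pulled down with anti-EGFP antibodies, and the input group (n = 3) is labelled input of the same line and tissue. The labels give the age only as adult, and do not say that replicates came from separate animals. The p-values below therefore measure only the spread between these libraries, which may be technical. The study's title names pyramidal neurons, and the comparison shows which transcripts are over- or under-represented on the tagged ribosomes relative to the cortex RNA.

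Classical cadherins join cells by calcium-dependent contact between like molecules on facing membranes, and their cytoplasmic tails bind catenins, which link them to actin. Type I members such as N-cadherin and type II members such as Cdh8 are made in different combinations by neurons of different layers and nuclei, and are known for their part in sorting, axon targeting and synapse formation. Non-clustered protocadherins of the delta families have their own cytoplasmic motifs, through which several delta-2 members recruit the WAVE actin regulators. Clustered protocadherins are chosen from arrays of promoters in each neuron, and the combination made by a neuron gives it a surface identity used in self-avoidance.

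IP libraries held 53147173 to 67559533 reads on genes, and input libraries held 37696125 to 52360452. CPM is the reads of a gene over the library's reads on genes, and values below include a scaling factor per library. Without that factor, a level of 3 reads was worth 0.0444 to 0.0796 CPM. It was taken as the floor, the lowest level these counts can resolve. Markers of glia were low in IP. Of the tested astrocyte, oligodendrocyte, oligodendrocyte precursor and microglia markers, 10 of 10, 10 of 10, 8 of 8 and 10 of 10 were lower in IP. Their summed levels were 110 to 126 CPM in IP and 574 to 587 CPM in input for astrocytes. For oligodendrocytes they were 170 to 190 CPM in IP and 1487 to 1631 CPM in input. All 8 of the 8 tested layer 5 pyramidal tract markers were higher in IP (summed level 646 to 705 CPM in IP and 284 to 322 CPM in input). The 6 layer 4 markers had 4 lower and 0 higher (summed level 69.4 to 86.0 CPM in IP and 370 to 469 CPM in input). Of 10 tested markers of striatal projection neurons, 9 were higher in IP and 1 lower (summed level 1425 to 1906 CPM in IP and 541 to 638 CPM in input). These genes are known from striatum more than from cortex. Endothelial markers had 6 of 8 lower, mural and fibroblast markers 4 of 9, and layer 6 corticothalamic markers 5 of 7 higher and 1 lower. Layer 2/3 markers had 2 of 8 higher and 4 lower, and GABAergic interneuron markers 5 of 12 higher and 2 lower. The part of these cell type differences in the results on cadherins was not tested. In bulk RNA, fewer cells of a type and less RNA per cell cannot be told apart. All IP libraries carry 1 sequencing index and all input libraries another, so index and group cannot be told apart.

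Of the 49 tested members, 8 were higher in IP, 10 were lower, and 31 did not pass the test (quasi-likelihood test of edgeR, with p adjusted by Benjamini-Hochberg over all 16506 tested genes and a threshold of 0.05). The members' share called was 36.7%, against 44.8% of all tested genes. By direction, 21.3% of all tested genes were higher in IP and 23.4% were lower. The median log2 fold change, IP over input, was -0.08 over members and -0.02 over all tested genes. Libraries of the IP and input groups did not overlap for 21 members, 10 above and 11 below. Over all tested genes, 56.1% had groups that did not overlap, 26.5% above and 29.5% below. All 18 called members were among those without overlap. Their sign of IP minus input is therefore the same in each of the 3 lanes by construction, which adds no support. Over all members the share called was below that of all genes. By class it was 55.6% for numbered cadherins, 54.5% for non-clustered and 10% for beta-cluster protocadherins. No class was tested as a set, so the results below are those of single members and counts of them.

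**Figure D1:**
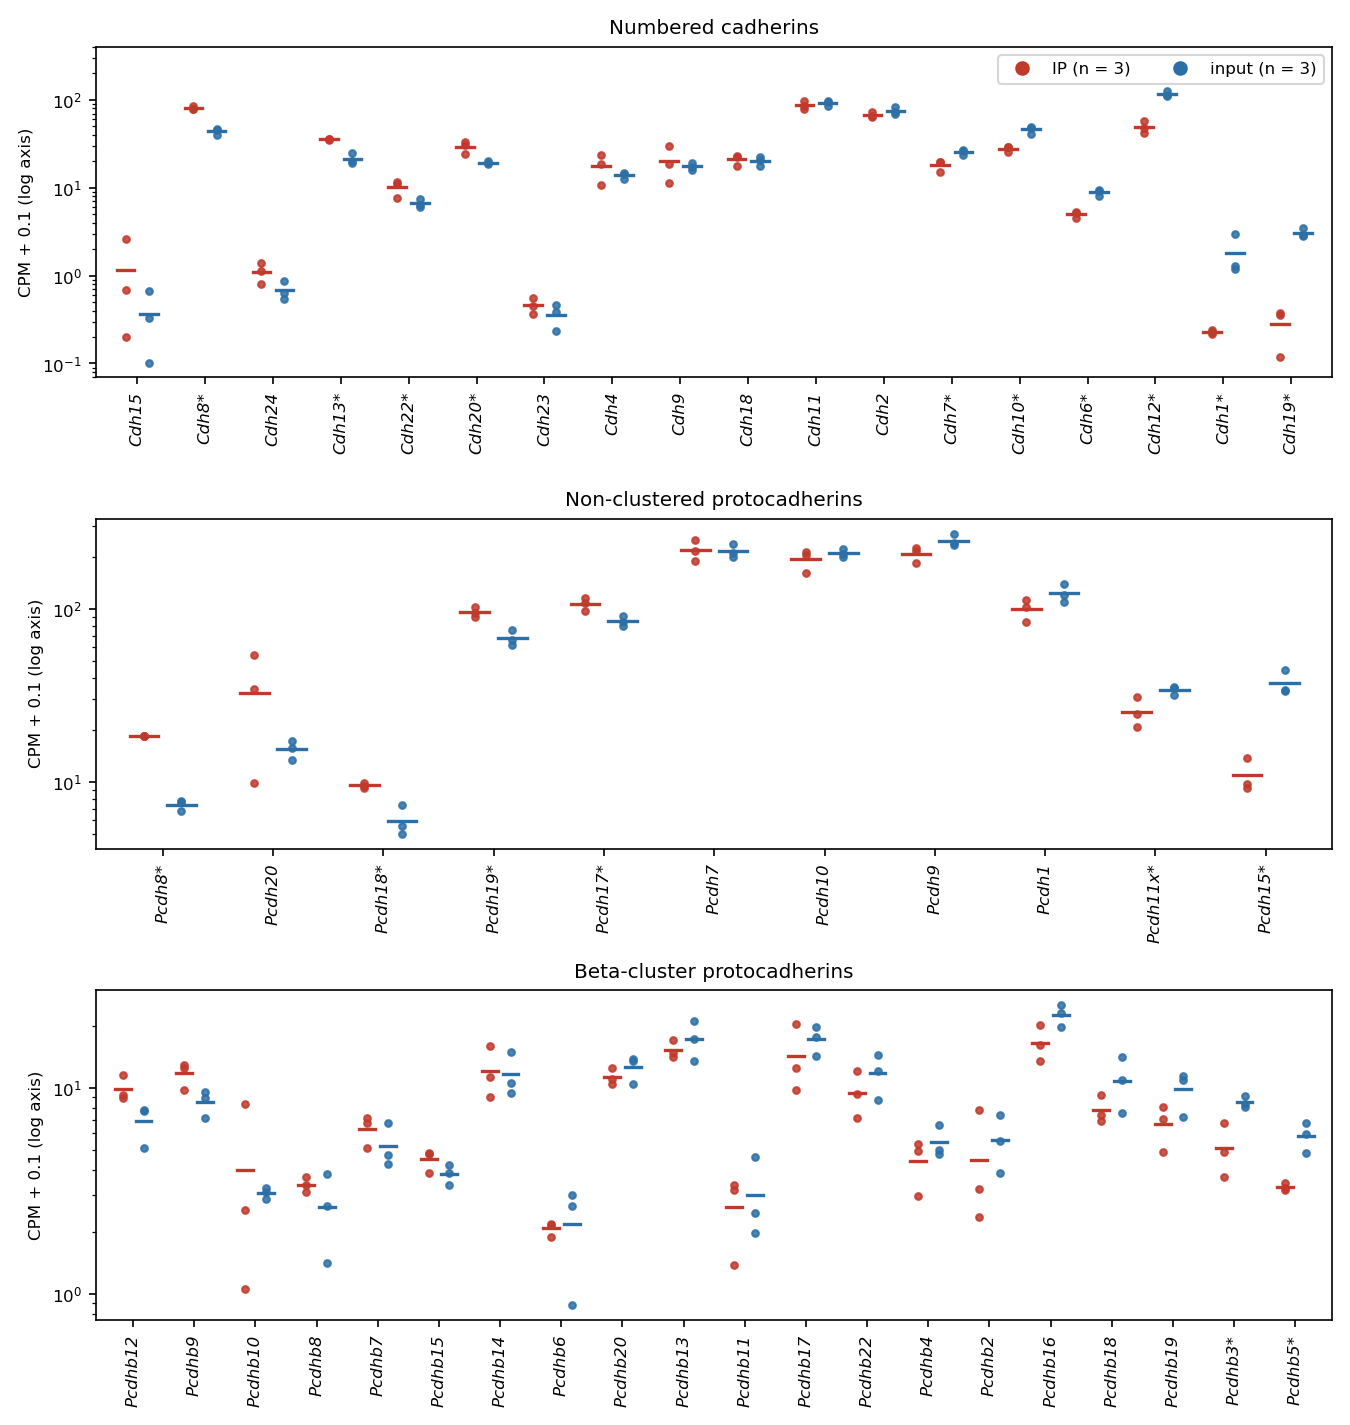
Level of each tested member in each library, as CPM plus 0.1 on a log axis, with IP (red, left of each pair) and input (blue, right) and a bar at the mean of 3 libraries; an asterisk marks an adjusted p under 0.05. Cdh8 averages 80.9 CPM in IP, against 44.1 CPM in input, and Cdh12 49.4 CPM in IP, against 116 CPM in input, while most beta-cluster genes have overlapping libraries.

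The numbered cadherins changed in both directions. Of 18 tested, 4 were higher in IP (Cdh8, Cdh13, Cdh20 and Cdh22), 6 were lower (Cdh12, Cdh10, Cdh6, Cdh7, Cdh19 and Cdh1), and 8 did not pass. Their share called was 55.6%, against 44.8% of all tested genes, and their median log2 fold change was 0.13. Summed over the class, the level differed little: 465, 463 and 488 CPM in the IP libraries, against 497, 505 and 537 CPM in the input libraries. The composition differed more. Cdh8 made up 17.2% ± 1.02 of the class in IP and 8.60% ± 0.707 in input, and Cdh12 made up 10.5% ± 1.43 in IP and 22.6% ± 0.644 in input (SD, n = 3 each).

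Among type II cadherins, the cadherin subclass with the most tested genes, 3 of 12 were higher in IP and 5 of 12 lower. Over all tested genes, 21.3% were higher and 23.4% lower. Cdh8, a synaptic cadherin of cortical projection neurons, had 84.4, 79.7 and 78.6 CPM in IP, against 46.3, 40.0 and 45.9 CPM in input. Every IP library lay above every input library. The fold was 1.84 (log2 0.88, SE 0.10, adjusted p 4.4e-05). Cdh20, another type II cadherin, had 30.4, 23.9 and 33.0 CPM in IP, against 18.4, 19.9 and 19.2 CPM in input, again without overlap (log2 0.60, SE 0.15, adjusted p 0.0061). Cdh22 had 7.48, 11.0 and 11.5 CPM in IP, against 7.27, 6.30 and 6.02 CPM in input. The lowest IP library and the highest input library, both of lane 1, were close to one another. Its log2 fold change was 0.61 (SE 0.22, adjusted p 0.038), and it did not pass with the replicate block (adjusted p 0.053), with the length and GC offset described with the gene length below (0.096) or when any library except IP replicate 1 was left out (adjusted p 0.051 to 0.12).

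Cdh12 had the largest difference in CPM of the class. This type II cadherin, also called N-cadherin 2, had 42.1, 48.1 and 58.0 CPM in IP, against 110, 113 and 125 CPM in input. The highest IP library was far below the lowest input library. The fold in favour of input was 2.35 (log2 -1.23, SE 0.12, adjusted p 1.5e-05). Cdh10 had 28.9, 28.8 and 25.4 CPM in IP, against 41.0, 49.2 and 47.9 CPM in input (log2 -0.73, SE 0.12, adjusted p 0.00055). Cdh6, known for axon-target matching in the mouse retina, had 5.09, 4.40 and 5.16 CPM in IP, against 9.10, 7.91 and 9.40 CPM in input (log2 -0.85, SE 0.21, adjusted p 0.0057). In both genes all IP libraries lay below all input libraries. Cdh7 had 19.5, 19.6 and 15.1 CPM in IP, against 27.1, 23.7 and 25.8 CPM in input (log2 -0.50, SE 0.15, adjusted p 0.017). It lost its call without IP replicate 3 (adjusted p 0.055), input replicate 1 (0.075) or input replicate 3 (0.060). The same offset ended the calls of Cdh7 (adjusted p 0.30) and Cdh10 (0.084).

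Cdh19 and Cdh1 were low in both groups and nearly absent from IP. Cdh19, a type II cadherin known from glia of the Schwann cell lineage, had 1, 18 and 19 reads in IP, against 124, 142 and 132 reads in input (0.0179, 0.258 and 0.278 CPM in IP, against 3.38, 2.82 and 2.70 CPM in input; log2 -3.96, SE 0.71, adjusted p 0.00087). Cdh1, the epithelial E-cadherin and a type I member, had 7, 10 and 8 reads in IP, against 44, 144 and 54 reads in input (log2 -3.72, SE 0.68, adjusted p 0.0010). All IP libraries lay below all input libraries for both genes. These changes run beside those of the glial markers above, whose median log2 fold changes were -3.88 for astrocytes, -3.70 for oligodendrocytes, -3.43 for oligodendrocyte precursors and -4.03 for microglia. The part of those cells in the 2 cadherins was not tested.

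Cdh11, the cadherin of the class with the most CPM in IP and, after Cdh12, the next in input, a type II cadherin first known from bone-forming cells, did not pass the test. It had 79.4, 85.6 and 97.8 CPM in IP, against 85.1, 95.7 and 96.7 CPM in input, and the groups overlapped (log2 -0.08, SE 0.11, adjusted p 0.57). Cdh2, N-cadherin, the main type I cadherin of neurons, averaged 67.2 ± 4.94 CPM in IP and 75.1 ± 7.38 CPM in input (SD, n = 3 each; log2 -0.16, SE 0.11, adjusted p 0.25). Cdh18 and Cdh9 gave log2 0.06 and 0.20, and Cdh9 ranged from 11.3 to 29.8 CPM among the IP libraries and from 16.0 to 19.3 CPM among the input libraries. Cdh4, the type I R-cadherin, ranged from 10.7 to 23.6 CPM in IP and from 12.5 to 14.7 CPM in input (log2 0.35, SE 0.24, adjusted p 0.27). Without IP replicate 2, the lowest IP library, the adjusted p was 0.015.

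Cdh13 is the exception among cadherins in having no cytoplasmic tail, being held to the membrane by a lipid anchor. It had 35.0, 36.1 and 35.4 CPM in IP, against 18.8, 25.0 and 20.3 CPM in input (log2 0.73, SE 0.14, adjusted p 0.0011). The 3 IP libraries were almost alike and above all 3 input libraries. Cdh23, a tip-link protein of inner ear hair cells, was detected only at 0.360 CPM in IP and 0.260 CPM in input on average and did not pass. Cdh15, the muscle cadherin, had 7 to 140 reads in IP libraries and 0 to 21 reads in input libraries, and 140 of its 187 IP reads were in IP replicate 1 (log2 2.02, SE 1.26, adjusted p 0.22). Cdh3, Cdh16, Cdh17 and Cdh26 had at most 32 reads in any library and were not tested.

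Cadherin genes on the same chromosome did not share a direction throughout. On chromosome 15, Cdh6, Cdh9, Cdh10, Cdh12 and Cdh18 lie between positions 13028701 and 23474418. Of these 5, 3 (Cdh6, Cdh10 and Cdh12) were lower while 0 were higher, beside 23.4% lower and 21.3% higher among all tested genes. Cdh10 lost its call with the length and GC offset. On chromosome 1, Cdh20 was higher while Cdh7 and Cdh19 were lower. On chromosome 8, Cdh8 and Cdh13 were higher and Cdh1 was lower. Given per kilobase of exon, Cdh8 had the highest level of the class in IP (10.5 CPM per kb), against rank 4 in input (5.69 CPM per kb), and Cdh12 was at rank 4 in IP (7.84 CPM per kb), against the highest level in input (18.4 CPM per kb). Cdh11 was at rank 2 in both, with 9.84 CPM per kb in IP and 10.4 CPM per kb in input. Exons of Cdh9 overlap the opposite-strand gene Gm49127 over 6.33% of their bases. Whether reads there were counted for Cdh9, came from Gm49127 or were left out is not known.

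Start windows of Cdh8, the most abundant cadherin that rose, and Cdh12, the cadherin with the largest difference in CPM among those that fell, are printed from RefSeq (GRCm38.p6, 300 bases around the annotated start, 5′ to 3′ on the gene's strand) with CG dinucleotides in capitals.
Cdh8 promoter, chr8:99416422-99416721, strand -: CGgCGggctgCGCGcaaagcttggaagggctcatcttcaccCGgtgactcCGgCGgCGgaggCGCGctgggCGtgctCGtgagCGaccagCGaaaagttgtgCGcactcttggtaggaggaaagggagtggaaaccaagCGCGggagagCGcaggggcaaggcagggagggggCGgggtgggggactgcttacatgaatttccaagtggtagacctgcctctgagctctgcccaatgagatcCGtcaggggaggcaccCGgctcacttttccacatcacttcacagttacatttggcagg
Cdh12 internal start window, chr15:21111202-21111501, strand +: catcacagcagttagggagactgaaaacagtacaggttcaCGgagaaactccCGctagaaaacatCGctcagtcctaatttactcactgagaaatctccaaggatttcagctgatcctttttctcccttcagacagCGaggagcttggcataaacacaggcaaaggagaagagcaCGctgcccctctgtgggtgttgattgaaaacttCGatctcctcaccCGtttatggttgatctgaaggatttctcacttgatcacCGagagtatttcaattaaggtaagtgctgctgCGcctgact
The start that RefSeq's table gives for Cdh12 lies 662.2 kb inside the gene model of GENCODE M21, so its window is at an internal start, while that of Cdh8 is at the start of the gene model. The Cdh8 window holds 21 CG dinucleotides and the Cdh12 window 9. Windows of 22 of the 55 members were matched by symbol. Of these, 19 lay within 2 kb of the gene model's start, and those of Cdh12, Cdh18 and Pcdh15 were 487.4 to 722.5 kb inside it. For the members that rose, 7 had a window, with 14 to 38 CG (median 21). Of those that fell, 5 had a window, with 2 to 18 CG (median 8), 2 of them internal. The window of Cdh10, with 2 CG, lay 1.4 kb inside the gene model and so does not cover its start. Where a gene had several windows, the first listed was used, and those of Cdh7 hold 18, 19 and 4 CG. Over all tested genes with a window, the medians were 21 CG in genes that rose and 20 CG in those that fell. The Spearman correlation of CG count and log2 fold change was 0.22 over 21 members and 0.09 over 11350 genes, given as a description over promoters that share base composition.

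Among the non-clustered protocadherins, 4 of the 5 tested delta-2 members were higher in IP and 0 lower by edgeR, DESeq2 and limma-voom, also with 0 lower at an unadjusted p under 0.05. Over all tested genes, 21.3% were higher and 23.4% lower by edgeR, 18.6% and 24.2% by DESeq2, and 21.5% and 25.9% by limma-voom. The share of all genes at an unadjusted p under 0.05 was not counted. Of the 4 delta-1 members, 1 was lower and 0 higher by edgeR, and at an unadjusted p under 0.05, as with DESeq2, 3 were lower and 0 higher (limma-voom 2 lower, 0 higher). Over the class of 11 tested, 4 were higher, 2 lower and 5 not called. The share called was 54.5%, against 44.8% of all tested genes, and the median log2 fold change was 0.01. Medians by subfamily were 0.50 for delta-2 and -0.28 for delta-1. Whether the subfamilies differ was not tested. Summed over the class the level was 996, 1003 and 1053 CPM in the IP libraries, against 1018, 993 and 1133 CPM in the input libraries, and the delta-2 sum was 438, 400 and 432 CPM in IP, against 382, 352 and 391 CPM in input. All delta-2 sums of IP lay above those of input, but the lowest IP sum was close to the highest input sum. A scaling by total counts in place of TMM changed the class to 5 higher and 1 lower, beside 25.8% higher and 20.8% lower among all genes. An offset for gene length and GC content changed it to 7 higher and 1 lower, beside 23.5% and 20.8% of all genes, and the same with the replicate block (23.7% and 21.1%). The offset added Pcdh7 of delta-1, Pcdh10 of delta-2 and Pcdh20 as higher, and ended the call of Pcdh11x of delta-1. DESeq2 gave 4 higher and 4 lower (18.6% and 24.2% of all genes), and so did requiring 1 CPM or more in 3 libraries (23.3% and 24.9%).

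**Figure D2:**
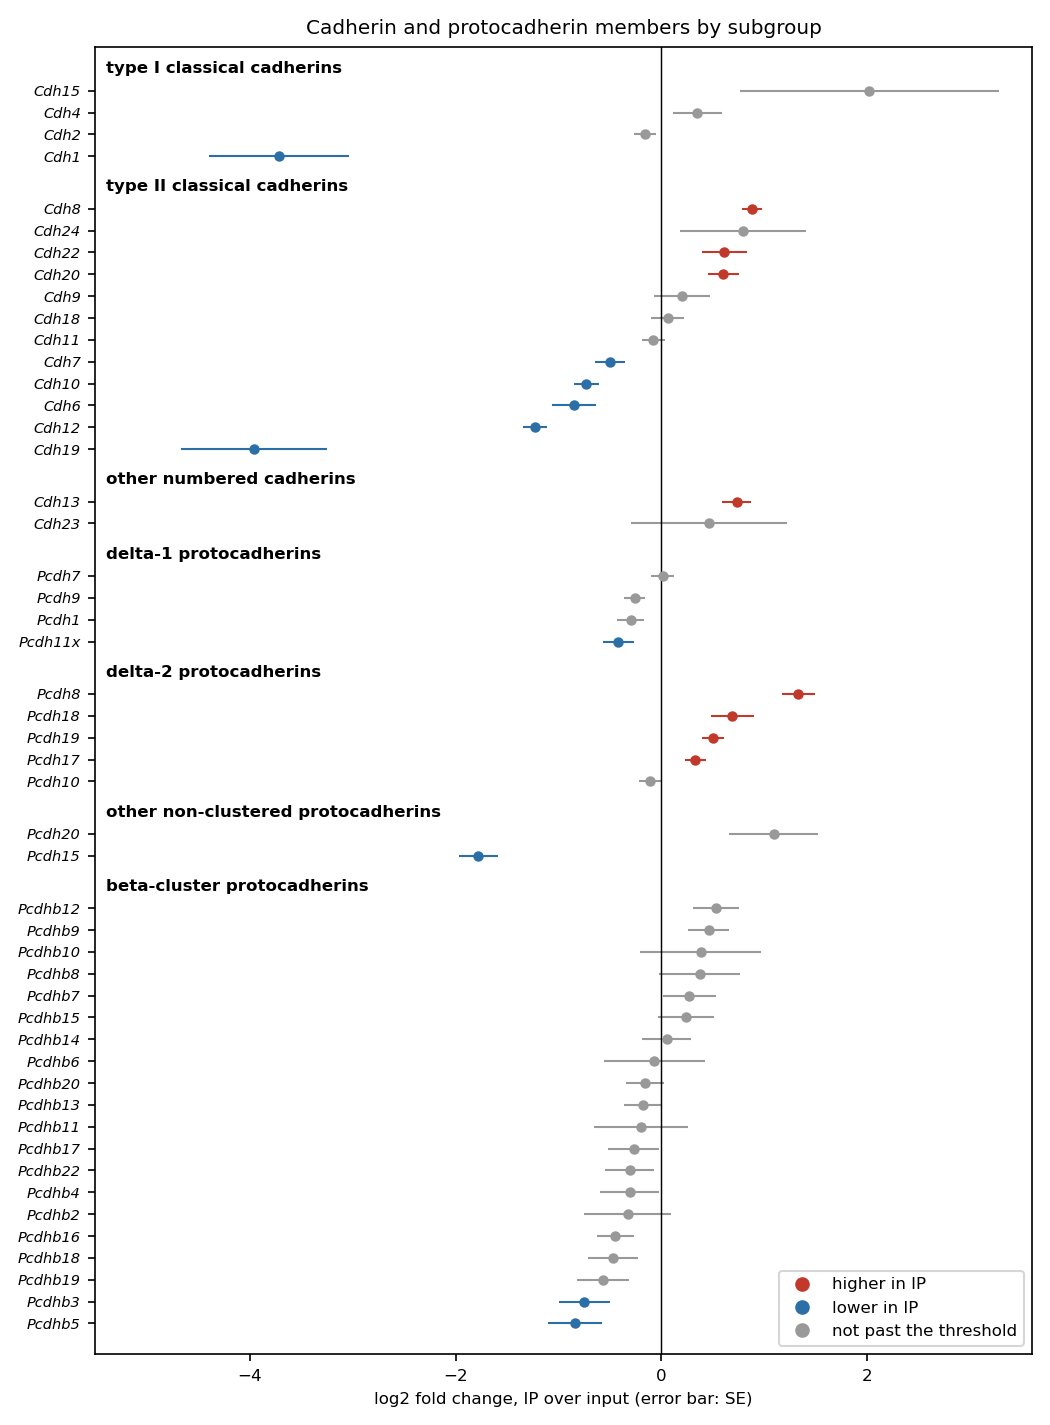
Log2 fold change, IP over input, of each tested member by subgroup, with the SE as an error bar; red is higher and blue lower in IP at an adjusted p under 0.05, grey is not past the threshold. The delta-2 protocadherins lie to the right of 0 except Pcdh10 (-0.11), while Pcdh15 at -1.78 is the lowest non-clustered protocadherin.

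Pcdh8, an activity-regulated delta-2 protocadherin that promotes cadherin internalisation at synapses, had 18.2, 18.4 and 18.2 CPM in IP, against 7.49, 6.68 and 7.64 CPM in input. Its IP libraries were almost alike and all above the input libraries. The fold was 2.51 (log2 1.33, SE 0.16, adjusted p 5.0e-05). The opposite-strand gene Gm9748 overlaps 9.61% of its exonic bases. Whether reads there were counted for Pcdh8, came from Gm9748 or were left out is not known. Pcdh19, an X-linked gene whose human counterpart is linked to epilepsy in females, had 89.1, 103 and 94.4 CPM in IP, against 75.1, 62.0 and 66.1 CPM in input, with no overlap (log2 0.50, SE 0.11, adjusted p 0.0025). Pcdh17, which organises synapses along corticobasal circuits, had 115, 108 and 97.2 CPM in IP, against 84.3, 79.6 and 90.7 CPM in input (log2 0.33, SE 0.10, adjusted p 0.017). It lost its call without IP replicate 1 (adjusted p 0.053) and without input replicate 2 (0.098). Pcdh18 had 9.38, 9.72 and 9.14 CPM in IP, against 7.22, 4.91 and 5.45 CPM in input (log2 0.69, SE 0.21, adjusted p 0.020), and lost its call without input replicate 2 (0.097) or 3 (0.065). Pcdh10, the remaining delta-2 gene, ranged from 160 to 213 CPM in IP and from 199 to 221 CPM in input, with overlap (log2 -0.11, SE 0.11, adjusted p 0.43). Its sign turned to 0.38 with the length and GC offset (adjusted p 0.017).

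The promoters of the 4 delta-2 genes that rose are printed, again with CG in capitals, as given by RefSeq (GRCm38.p6). Whether they share sequence was not tested.
Pcdh8 promoter, chr14:79771263-79771562, strand -: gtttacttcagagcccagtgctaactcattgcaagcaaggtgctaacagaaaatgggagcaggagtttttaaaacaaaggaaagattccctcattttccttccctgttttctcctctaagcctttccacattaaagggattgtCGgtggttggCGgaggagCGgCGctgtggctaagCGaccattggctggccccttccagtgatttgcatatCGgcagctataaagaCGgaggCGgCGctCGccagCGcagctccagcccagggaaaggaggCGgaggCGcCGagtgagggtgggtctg
Pcdh17 promoter, chr14:84443313-84443612, strand +: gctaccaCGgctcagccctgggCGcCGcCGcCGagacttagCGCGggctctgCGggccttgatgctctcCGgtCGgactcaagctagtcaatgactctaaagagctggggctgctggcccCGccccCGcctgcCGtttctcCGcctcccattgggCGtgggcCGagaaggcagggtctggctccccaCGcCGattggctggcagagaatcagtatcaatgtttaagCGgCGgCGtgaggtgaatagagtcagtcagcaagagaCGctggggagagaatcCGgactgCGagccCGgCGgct
Pcdh18 promoter, chr3:49757267-49757566, strand -: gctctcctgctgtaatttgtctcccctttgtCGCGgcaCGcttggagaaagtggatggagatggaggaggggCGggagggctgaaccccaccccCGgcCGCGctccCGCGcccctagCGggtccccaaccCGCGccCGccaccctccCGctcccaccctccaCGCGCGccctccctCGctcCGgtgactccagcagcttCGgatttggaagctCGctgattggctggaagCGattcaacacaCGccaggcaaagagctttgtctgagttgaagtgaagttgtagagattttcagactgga
Pcdh19 promoter, chrX:133688944-133689243, strand -: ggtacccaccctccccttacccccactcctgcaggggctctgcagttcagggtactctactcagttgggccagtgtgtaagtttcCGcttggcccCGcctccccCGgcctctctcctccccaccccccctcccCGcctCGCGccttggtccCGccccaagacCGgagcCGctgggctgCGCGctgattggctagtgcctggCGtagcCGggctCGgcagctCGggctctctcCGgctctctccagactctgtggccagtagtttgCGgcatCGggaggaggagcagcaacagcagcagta
They hold 14, 26, 23 and 18 CG dinucleotides in the order printed, against a median of 20 over 11350 tested genes with a window and of 7 over all 32851 windows, and 94.6% of all windows hold at least 1 CG. The word TATAAA, searched on both strands as TATAAA or TTTATA, was found in the window of Pcdh8 but not in those of the other 3. It was found in 7.25% of windows of tested genes and 13.6% of all windows, and among members also in the internal window of Pcdh15. The window of Pcdh10, the delta-2 gene that was not called, holds 24 CG and no TATAAA.

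The delta-1 protocadherins include Pcdh7 and Pcdh9, the protocadherins with the most CPM, and their log2 fold changes ran from -0.42 to 0.01. Pcdh9 had 183, 214 and 225 CPM in IP, against 232, 239 and 272 CPM in input (log2 -0.26, SE 0.10, adjusted p 0.059), with groups apart. Pcdh7, the most abundant of the class in IP before length is taken into account, had 216, 188 and 249 CPM in IP, against 211, 199 and 237 CPM in input, with overlap (log2 0.01, SE 0.11, adjusted p 0.93). With the length and GC offset, Pcdh7 was called higher. The opposite-strand gene 4932441J04Rik overlaps 21.1% of its exonic bases. Pcdh1 averaged 99.6 ± 14.4 CPM in IP and 123 ± 15.7 CPM in input (SD, n = 3 each; log2 -0.30, SE 0.13, adjusted p 0.068). With the replicate block, Pcdh1 (adjusted p 0.022) and Pcdh9 (0.019) passed, which makes 4 higher and 4 lower non-clustered members, beside 21.9% higher and 24% lower among all genes. Pcdh11x, an X-linked delta-1 gene, had 30.9, 24.4 and 20.6 CPM in IP, against 34.6, 31.7 and 35.0 CPM in input (log2 -0.42, SE 0.15, adjusted p 0.044). The highest IP library and the lowest input library were close. Its call was lost when any library except IP replicate 1 was left out (adjusted p 0.073 to 0.14) and with total counts (0.12). The length and GC offset turned its log2 fold change to 0.14. Per kilobase of exon, Pcdh9 had the highest level of all non-clustered protocadherins in both groups, at 30.6 CPM per kb in IP and 36.6 CPM per kb in input.

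Pcdh15 had the largest fall among the non-clustered protocadherins. This tip-link partner of Cdh23 in hair cells is, in brain, also a transcript of oligodendrocyte precursors. It had 9.63, 9.13 and 13.6 CPM in IP, against 33.3, 33.7 and 44.3 CPM in input (log2 -1.78, SE 0.19, adjusted p 1.9e-05), with groups far apart. With the length and GC offset the log2 fold change was -1.12 (adjusted p 0.00029). The 8 oligodendrocyte precursor markers summed to 9.98 ± 2.01 CPM in IP and 110 ± 2.35 CPM in input (SD, n = 3 each), and Pdgfra, the receptor that defines those cells, averaged 2.13 CPM in IP and 22.4 CPM in input. Their part in the fall of Pcdh15 was not tested. Pcdh20 varied widely among the IP libraries, with 34.1, 54.1 and 9.70 CPM in the IP libraries, against 15.6, 17.2 and 13.3 CPM in input. IP replicate 3 lay below all input libraries, while the other IP libraries lay above them. The adjusted p was 0.057 (log2 1.09, SE 0.43), and it was 7.7e-05 without IP replicate 3. Pcdh12, an endothelial protocadherin, had 0 reads in the IP libraries and 5 reads in 1 input library, and was not tested.

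The 21 beta-cluster genes with a row in the counts lie on chromosome 18 (GENCODE M21, mm10) over 259.5 kb, and 17 of them have 1 exon. GENCODE M21 also holds Pcdhb21, which had no row. It overlaps 6.9% of the exonic bases of Pcdhb22 on the same strand. Beta genes carry no shared constant exon, unlike those of the alpha and gamma clusters, but their coding sequences resemble each other, and reads that align to several places were not counted. Not uniquely aligned reads made up 32.9% to 35.7% of the listed reads in IP and 21.1% to 23.3% in input, so values of genes with near-identical copies are uncertain. Of 20 tested, 0 were higher and 2 were lower in IP by edgeR, against 21.3% and 23.4% of all tested genes. At an unadjusted p under 0.05, 2 were higher and 4 lower, and DESeq2 and limma-voom each called 0 higher and 3 lower. The median log2 fold change was -0.19, with 7 positive and 13 negative values. The class summed to 143, 164 and 153 CPM in IP, against 148, 189 and 181 CPM in input, which overlapped. The libraries of the groups overlapped for 16 of the 20 tested genes, while 56.1% of all tested genes had groups that did not overlap. Total counts gave 2 higher (Pcdhb9 and Pcdhb12) and 1 lower.

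Pcdhb5 had 3.17, 3.10 and 3.34 CPM in IP, against 5.88, 6.64 and 4.71 CPM in input, with all IP libraries below all input libraries (log2 -0.84, SE 0.26, adjusted p 0.020). It lost its call without input replicate 1 (adjusted p 0.065) or 2 (0.10). Pcdhb3 had 3.59, 6.62 and 4.78 CPM in IP, against 8.20, 9.00 and 7.96 CPM in input (log2 -0.75, SE 0.25, adjusted p 0.030). Again the groups did not overlap. Its call was lost with total counts (0.052) and when any library except IP replicate 2 was left out (adjusted p 0.059 to 0.10). The 2 genes start 55.4 kb and 35.9 kb from the start of Pcdhb1, and Pcdhb4, which lies between them, gave log2 -0.31 (SE 0.29, adjusted p 0.42).

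Pcdhb16, the most abundant beta gene, had 20.0, 13.3 and 16.1 CPM in IP, against 19.6, 25.1 and 22.8 CPM in input. IP replicate 1 overlapped the input libraries and the others lay below (log2 -0.45, SE 0.18, adjusted p 0.054). The adjusted p was 0.030 with DESeq2, 0.032 with limma-voom, 0.044 with RLE size factors and 0.016 without IP replicate 1. Pcdhb9 and Pcdhb12 had IP libraries above all input libraries without a call (log2 0.46 and 0.53, SE 0.20 and 0.22, adjusted p 0.076 and 0.073). Pcdhb12 shares 63.5% of its exonic bases with the opposite-strand gene Gm37446, and no source used here gives the strand setting or annotation of the counting. Whether reads there were counted for Pcdhb12, came from Gm37446 or were left out is not known. Pcdhb10 varied most among the IP libraries, at 0.951, 8.27 and 2.45 CPM, against 2.78, 3.16 and 3.03 CPM in input (log2 0.38, SE 0.59, adjusted p 0.63). Per kilobase of exon, Pcdhb13 had the highest level in both groups, with 4.10 CPM per kb in IP and 4.63 CPM per kb in input. Among replicates the median coefficient of variation of the tested beta genes was 18.7% in IP and 22.4% in input, against 17.2% in IP and 13.1% in input over all tested genes. Pcdhb1, with at most 11 reads in a library, was not tested.

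**Figure D3:**
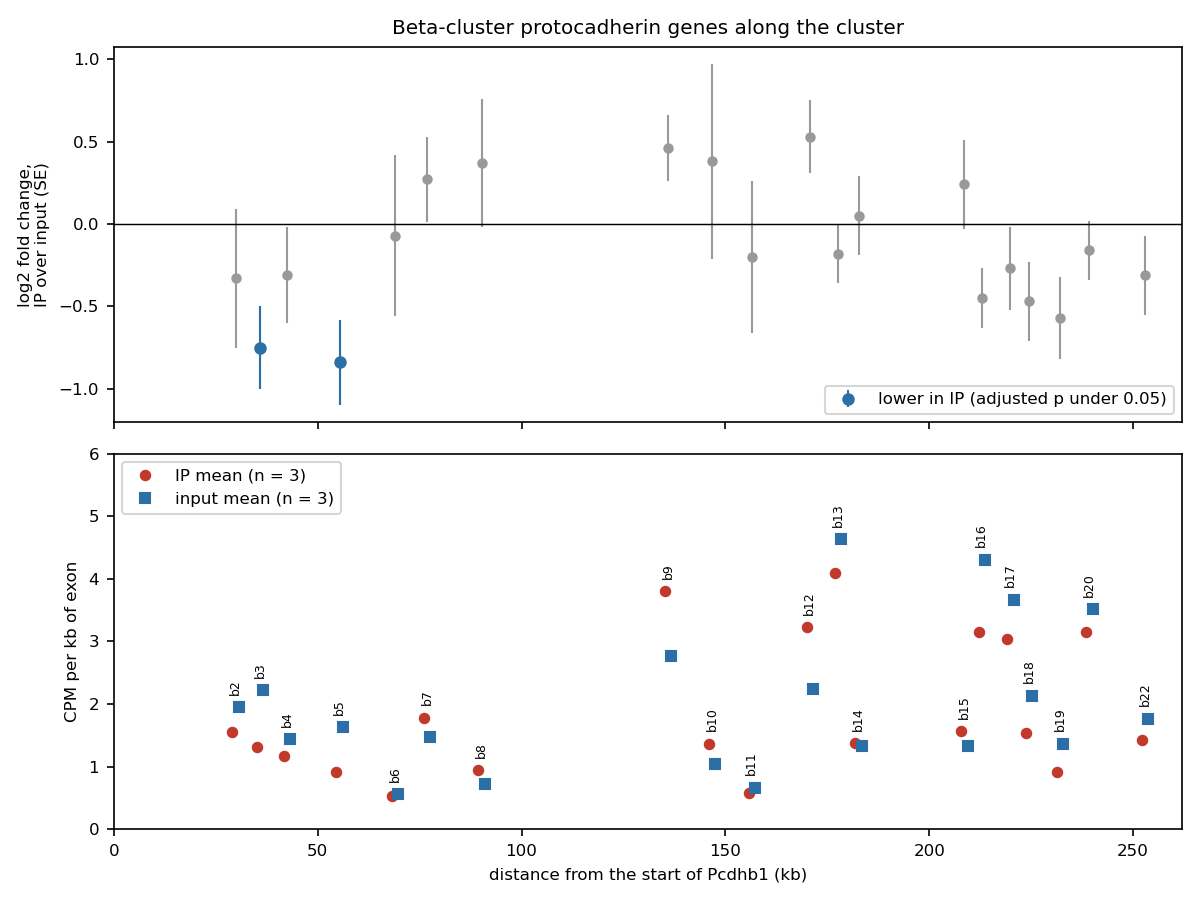
Beta-cluster genes by distance from the start of Pcdhb1 in kb: above, the log2 fold change, IP over input, with SE, with genes called lower in blue; below, the mean level in CPM per kb of exon in IP (red circles) and input (blue squares), n = 3 each. Of the tested genes, only Pcdhb5 (-0.84) and Pcdhb3 (-0.75) pass the threshold.

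Longer genes had lower log2 fold changes across the data. The median exonic length was 5041 bp for tested members and 4437 bp for 14469 tested genes with a gene model. Over those genes, exonic length and log2 fold change had a Spearman correlation of -0.24, and bins of rising length had medians of 0.37 (under 2000 bp), 0.19 (2000 to 4000 bp), 0.04 (4000 to 6000 bp), -0.07 (6000 to 8000 bp) and -0.23 (over 8000 bp). Over 49 members the correlation was -0.21. By class it was -0.27 over 18 cadherins, -0.74 over 11 non-clustered and -0.53 over 20 beta-cluster protocadherins. GC content and log2 fold change had a correlation of 0.48 over members and 0.14 over all genes. These are descriptions across genes, which are not independent replicates and share libraries. Offsetting each library by a smooth over length and GC ended the calls of Cdh22, Cdh7, Cdh10 and Pcdh11x and added Pcdh7, Pcdh10 and Pcdh20 as higher. The changes of Cdh8, Cdh13, Cdh20, Cdh12, Cdh6, Cdh19, Cdh1, Pcdh8, Pcdh19 and Pcdh15 passed under all 15 alternatives tried, which makes 10 of the 18 calls.

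**Figure D4:**
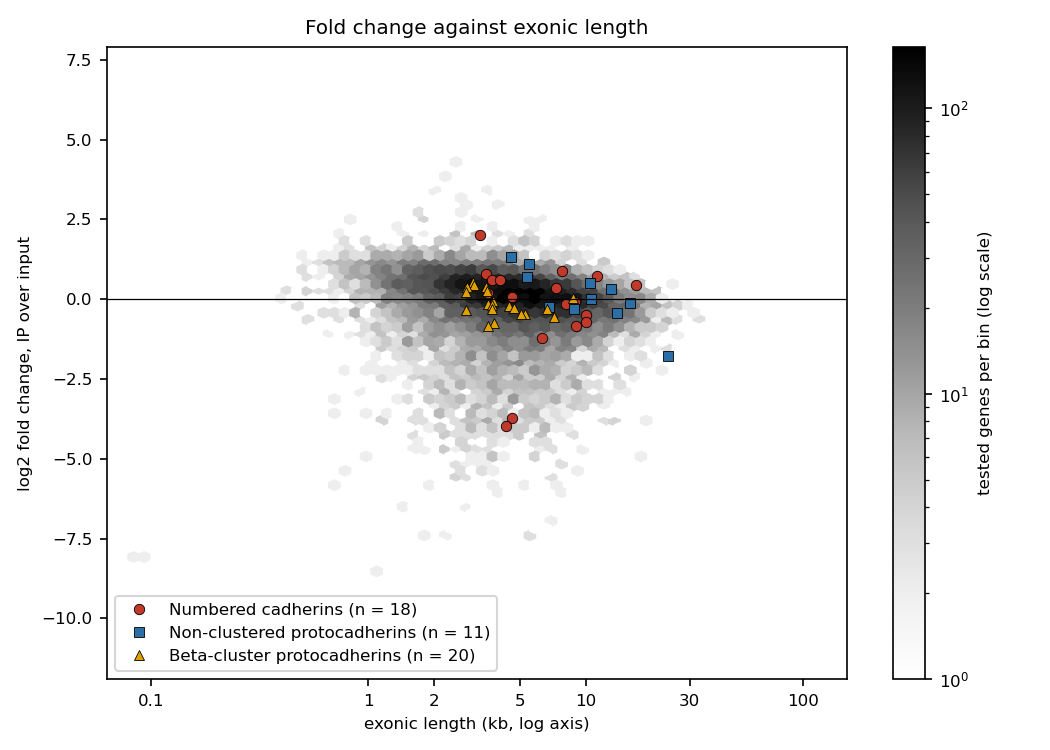
Log2 fold change, IP over input, against exonic length in kb (log axis) for all tested genes with a gene model (grey, number of genes per bin) and for the members by class (coloured). Pcdh15, the longest of the non-clustered protocadherins, has the lowest value of its class, and short genes lie higher than long ones in the grey cloud.

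The partner genes of cadherins, in 8 lists, held 123 tested genes, of which 11 were higher in IP (8.94%) and 29 lower (23.6%), against 21.3% and 23.4% of all tested genes, with a median log2 fold change of -0.08. Catenins, the cytoplasmic partners of classical cadherins, gave 0 higher and 2 lower of 12 by edgeR, DESeq2 and limma-voom, with 1 higher and 2 lower at an unadjusted p under 0.05. These were Ctnnd1, p120-catenin, which stabilises cadherins at the membrane (61.5 ± 4.74 CPM in IP and 126 ± 8.33 CPM in input; log2 -1.04, SE 0.10, adjusted p 9.9e-06), and Ctnnal1, an alpha-catenin relative (log2 -2.83, SE 0.20, adjusted p 1.0e-06). Ctnnd2, the neural delta-catenin and the most abundant of the list, averaged 523 ± 38.2 CPM in IP and 484 ± 62.7 CPM in input and did not pass (log2 0.11, SE 0.10, adjusted p 0.41). Junction scaffold and nectin genes had 1 higher and 10 lower of 15, with a median of -0.60. Among those that fell was Vcl, the actin linker vinculin (log2 -1.54, SE 0.23, adjusted p 0.00024). Shroom2 was the only one that rose (log2 0.39, SE 0.11, adjusted p 0.014), and its call was lost without input replicate 2 (0.076).

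Of the WAVE complex and protocadherin effectors, 5 of 15 were higher and 2 lower, beside 21.3% higher and 23.4% lower among all tested genes. Wasf1, the neuronal WAVE subunit, averaged 410 ± 51.3 CPM in IP and 263 ± 10.7 CPM in input (SD, n = 3 each; log2 0.64, SE 0.10, adjusted p 0.00031), and Ptk2b, a kinase that protocadherins bind, averaged 435 ± 106 CPM in IP and 259 ± 10.6 CPM in input (log2 0.74, SE 0.14, adjusted p 0.0011). Wasf2, a WAVE gene with wide expression, gave log2 -1.80 (SE 0.21, adjusted p 4.0e-05), and Nckap1l, the subunit known from blood cells, -1.79 (SE 0.49, adjusted p 0.011), a call that was lost without input replicate 1 (0.052). The part of microglia in the last values was not tested. Large atypical cadherins gave 1 higher and 4 lower of 8. Fat3 averaged 150 ± 17.6 CPM in IP and 348 ± 33.3 CPM in input (log2 -1.21, SE 0.11, adjusted p 6.2e-06), and Celsr2, a planar polarity cadherin, averaged 284 ± 24.4 CPM in IP and 211 ± 14.6 CPM in input (log2 0.43, SE 0.09, adjusted p 0.0031).

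Of the alpha and gamma protocadherin genes, 0 of 33 tested were higher and 3 lower by edgeR, DESeq2 and limma-voom, with a median of -0.07. Over all tested genes, edgeR called 21.3% higher and 23.4% lower. At an unadjusted p under 0.05, 1 of the 33 was higher and 3 lower. Pcdhgb8, a gamma gene, had the adjusted p nearest the threshold (log2 -1.06, SE 0.40, adjusted p 0.049). It lost its call with the replicate block (0.082), total counts (0.070), no filter (0.080), and when any library was left out (adjusted p 0.064 to 0.16). Pcdhgc3 averaged 3.08 ± 0.272 CPM in IP and 11.4 ± 2.10 CPM in input (log2 -1.90, SE 0.22, adjusted p 4.7e-05). Pcdhgc5 averaged 42.1 ± 1.89 CPM in IP and 60.5 ± 4.25 CPM in input (log2 -0.52, SE 0.11, adjusted p 0.0018). These genes share constant exons, so reads there match several genes and were left out. Over the whole library, reads matching several genes of any kind made up 1.77% to 1.91% of listed reads in IP and 8.12% to 9.83% in input. The part of these exons in them was not tested. Regulators of the clustered promoters had 2 higher and 5 lower of 15. Smc1a, a cohesin subunit, averaged 127 ± 1.67 CPM in IP and 86.1 ± 3.35 CPM in input (log2 0.56, SE 0.09, adjusted p 0.00031), and Tet1, which removes DNA methylation, averaged 24.8 ± 1.14 CPM in IP and 70.2 ± 1.08 CPM in input (log2 -1.50, SE 0.10, adjusted p 9.4e-07). Of processing and turnover genes, 1 of 15 was higher (Rab11a, a recycling endosome GTPase; log2 0.69, SE 0.15, adjusted p 0.0027) and 3 lower. Those that fell most were Numb, an endocytic adaptor (log2 -0.95, SE 0.12, adjusted p 5.8e-05), and Ptprk, a receptor phosphatase (log2 -0.92, SE 0.12, adjusted p 8.7e-05). Dsc3, a desmosomal cadherin, was the 1 gene of 10 tested calsyntenin and desmosomal genes that passed by edgeR, DESeq2 or limma-voom or at an unadjusted p under 0.05 (log2 1.99, SE 0.46, adjusted p 0.0044). Clstn1, a calsyntenin and the most abundant of that list, averaged 302 ± 26.7 CPM in IP and 315 ± 19.7 CPM in input (log2 -0.06, SE 0.09, adjusted p 0.60).

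**Figure D5:**
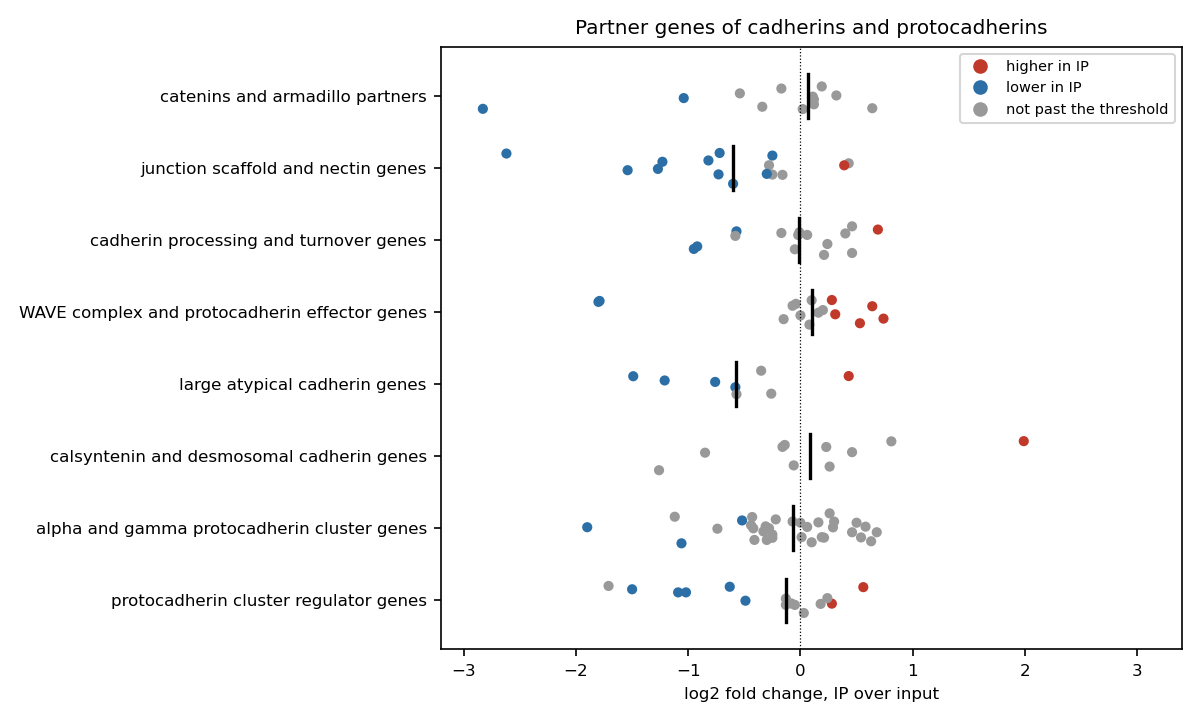
Log2 fold change, IP over input, of the tested partner genes in 8 lists, with a black bar at each list's median; red is higher and blue lower in IP at an adjusted p under 0.05. The junction and large atypical lists lie mostly to the left of 0, with medians of -0.60 and -0.58.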

How the data were processed

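RNA of 3 IP and 3 input libraries was measured by RNA-seq. Each deposited file lists gene symbols with whole-number read counts, which the authors left unnormalized. STAR 2.0.0e, HTSeq and the mouse build mm10 are named in the submitters' processing notes. No source used here gives the version of HTSeq, its strand setting or its annotation. Rows that name no gene (no feature, 8.60% to 8.92% of listed reads in IP and 16.7% to 18.1% in input; several genes; several places; unknown, at most 2 reads) were left out. Libraries of a group were not copies of each other (chi-square per degree of freedom 22.0 to 65.2).

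Groups were compared with edgeR 4.0.16 in R 4.3.3 (quasi-likelihood F-test), with TMM, filterByExpr and a group term. The threshold was a two-sided adjusted p under 0.05 over 16506 genes. On simulated counts the test recovered 42% of genes set at log2 0.585, 50% at log2 1, 50% at log2 -1 and 72% at log2 2. It made 11 false calls among 16306 unchanged genes. A gene without a call may therefore still differ. The SE was derived from the test statistic, and CPM used TMM-scaled library sizes. Intervals of counting were not added, and the floor of 3 reads covers counting error only. Alternatives were DESeq2 1.42.0, voom of limma 3.58.1, RLE size factors, total counts, no filter, at least 1 CPM in 3 libraries, a length and GC offset (loess, span 0.3), the replicate block, and each library left out. Lane and replicate number coincide in the labels of both groups, so a number marks a shared lane. Same-numbered libraries correlated at 0.0872, 0.0608 and 0.0431 in their deviations, and others at -0.0566 to 0.00144. Exonic lengths and positions come from GENCODE M21 (mm10), and promoters from RefSeq.

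The members and lists were chosen with earlier results of these data known. Values per library are given for called members with a mean of at least 5 CPM in the higher group and for the most abundant of each class; members just below that level are given by reads or value where they are the exception. Partner genes named are the most changed called genes and the most abundant gene of each list, and not all are repeated here.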

Additional observations from a re-analysis of the deposited data

How the results depend on the processing

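The counts of numbered cadherins kept within 1.5 times of 4 higher and 6 lower under all alternatives (3 to 4 higher and 4 to 6 lower). Leaving out each library gave 3 to 4 higher and 5 to 6 lower. Among all tested genes, 15.8% to 25.8% were higher and 18.3% to 25.9% lower under the alternatives. With each library left out, these shares were 15.8% to 19.9% and 18.3% to 23.8%. For non-clustered protocadherins (4 higher and 2 lower), the length and GC offset gave 7 higher and 1 lower, alone and with the replicate block. The replicate block gave 4 lower, as did DESeq2 and the filter of at least 1 CPM, and total counts gave 1 lower. Leaving out each library gave 2 to 5 higher and 1 to 2 lower, with the 2 higher without input replicate 2. Without that library, 15.8% of all tested genes were higher and 18.7% lower. For the beta cluster (0 higher and 2 lower), total counts gave 2 higher and 1 lower, and leaving out each library gave 0 to 1 higher and 0 to 3 lower. The 11 partner genes called higher became 18 with total counts, 17 with the length and GC offset and 19 with the offset and replicate block. The shares of all tested genes called higher were 25.8%, 23.5% and 23.7% in these fits, against 21.3% without these changes. Total counts moved the median of all genes by 0.09 on the log2 scale. With the length and GC offset, and with the offset and replicate block, Pcdh10 turned to 0.38 and 0.37, Pcdh11x to 0.14 and 0.13, Magi2 to 0.06 and 0.06, and Dab1 to 0.23 and 0.23 (log2); the cause was not tested. The replicate block ended the call of Cdh22 and added Pcdh1 and Pcdh9, and changed no other member's call. Members at or under the floor of 3 reads, such as Cdh16 and Pcdh12 in IP, limit what this depth can show.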
